A study of Homo sapiens with 9 samples.

Results

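The genes described here code for the subunits of the receptors for glutamate, GABA and glycine, the main fast transmitters of the nervous system. The group holds 50 of the 34961 genes in the deposited table. Members were chosen by symbol: GRIA1 to GRIA4, the GRIK, GRIN, GRID and GRM genes, the GABR genes of the ionotropic GABA-A receptor, GABBR1 and GABBR2, and the GLRA genes with GLRB. A member also had to carry a protein-coding transcript type. Measured values did not enter this rule, but it was set with earlier results of these data known. RNA sequencing had been done on the human embryonic stem cell line WA09 (also called H9), which carried a TPH2-EGFP knock-in, a green fluorescent reporter placed at the gene for the enzyme that starts serotonin synthesis in neurons. The line was sampled as stem cells (Day0), and after induction towards serotonin neurons on Day21 and on Day42, with 3 libraries per day. All 9 libraries share the cell line and the knock-in. Their labels carry the same treatment entry, although only Day21 and Day42 were sampled after induction. The labels call the replicates biological, but say nothing of separate differentiations, of the line being 1 clone or of sorting by EGFP.

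Ionotropic glutamate receptors are cation channels built from 4 subunits and excite neurons. They form the AMPA (GRIA), kainate (GRIK), NMDA (GRIN) and delta (GRID) classes, whereas metabotropic receptors (GRM) signal through G proteins. GABA-A receptors (alpha, beta, gamma and rarer subunits) and glycine receptors (GLRA, GLRB) are chloride channels, which inhibit mature neurons and often depolarise immature ones, and GABA-B receptors signal through G proteins. Serotonin neurons of the raphe nuclei receive glutamate, GABA and glycine inputs.

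Total counts ran between 58526466 and 69658328 per library, but fewer genes had a count on Day42 (16077, 17101 and 10797) than on the earlier days (22198 to 24741). The third Day42 library therefore stood apart, and several results that rest on it are also given without it. Of the 6 serotonin neuron markers checked, 5 were above the detection limit in all Day42 libraries (summed 1113 to 1344 CPM, counts scaled to the library size that edgeR's TMM method gives), including TPH2 and FEV, while the serotonin transporter SLC6A4 was at 0 in all 3 of them. Of these 5, SLC18A2 stood at 97.3 and 111 CPM in the first and second Day42 libraries. In the third it was at 0.771 CPM, under its Day0 values (2.73 to 5.28). Of the catecholamine neuron markers, TH was at 23.3, 27.4 and 0 CPM in the Day42 libraries, and DBH was at 0 in all of them. The summed stem cell markers stood at no more than 0.0769 CPM on Day42. The 4 markers of mesenchyme summed to 8.02 to 9.28 CPM at Day0, 552 to 599 at Day21 and 118 to 157 at Day42, and their part in the results was not tested. Counts piled up at multiples of 4, so a count of 12 per library was taken as the detection limit. In bulk RNA, fewer cells of a type and less RNA per cell cannot be told apart.

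Receptor subunit RNA was most abundant on Day42. The summed FPKM (the authors' unit, fragments scaled to gene length and library size) of the 50 members was 15.9, 16.7 and 15.6 in the Day0 libraries, 8.06, 6.37 and 5.99 in the Day21 libraries, and 110, 127 and 57.0 in the Day42 libraries. The lowest Day42 library was thus above every earlier one, and every Day21 library was below every Day0 library. The number of members above the detection limit did not follow these sums: 28, 25 and 33 members passed in the Day0 libraries, 27, 21 and 25 in the Day21 libraries, and 26, 27 and 13 in the Day42 libraries. The share of all protein-coding genes above the limit was 78.2% to 81.4% in the Day0 libraries, 78.4% to 80.0% in the Day21 libraries, and 63.5%, 67.3% and 39.4% in the Day42 libraries.

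**Figure D1:**
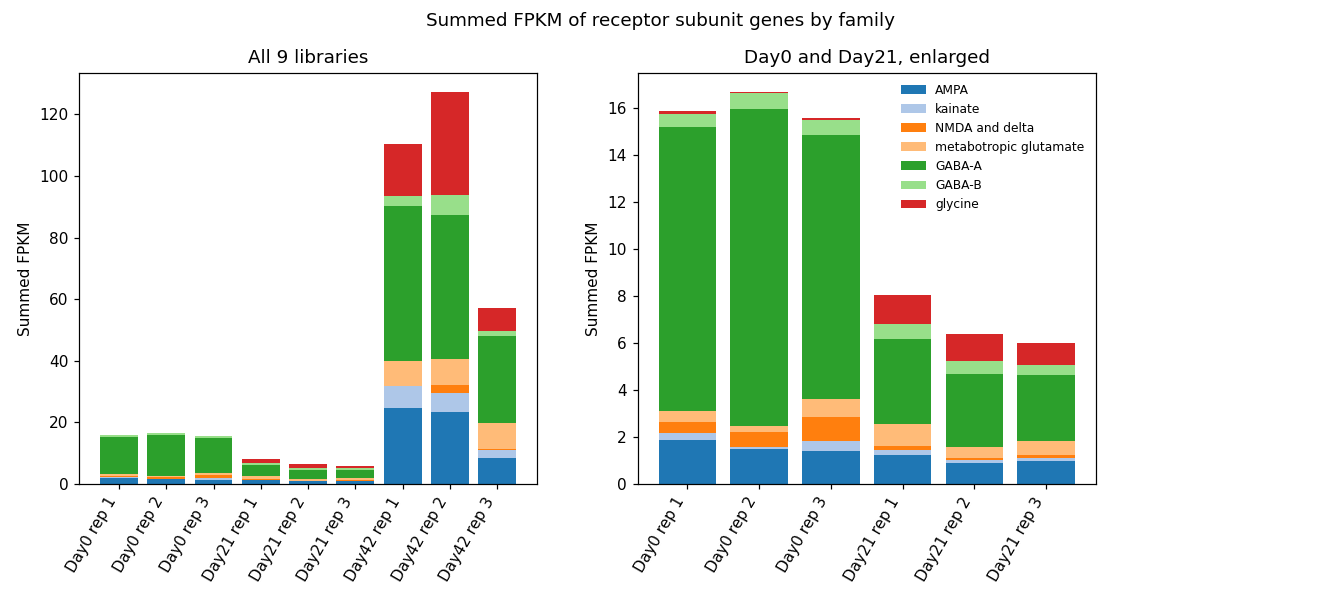
Summed FPKM (not TMM-scaled) of the subunit genes in each library, stacked by receptor family, with the 6 earlier libraries enlarged on the right. The Day42 bars reach 110, 127 and 57.0, and the Day21 bars, at 5.99 to 8.06, are the lowest.

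The order of the subunit genes within a day differed between days. Among the members named here, the highest mean FPKM on Day0 was that of GABRA3 (3.01 ± 0.787; SD, n = 3), followed by GABRA5 (2.52 ± 0.632) and GRIA3 (1.27 ± 0.188). The means of GABRA3 and GABRA5 were closer than their spread. On Day21 they were GABRA3 (1.47 ± 0.170), GLRB (0.996 ± 0.180) and GRIA1 (0.587 ± 0.0843). On Day42 GABRA3 (18.7 ± 12.9), GLRA2 (14.8 ± 8.39) and GRIA4 (13.0 ± 4.32) had mean FPKM values that lay within one another's spread, and GRM7 (6.74 ± 1.41), GLRB (4.28 ± 4.92) and GRIK2 (4.02 ± 1.78) came next. GLRA2, GRIA4, GRM7 and GRIK2 were not among the 8 highest members on either earlier day. GRIA4 came just below that cutoff, at rank 9 by mean FPKM on both Day0 and Day21. It was above the detection limit in all libraries of those days.

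**Figure D2:**
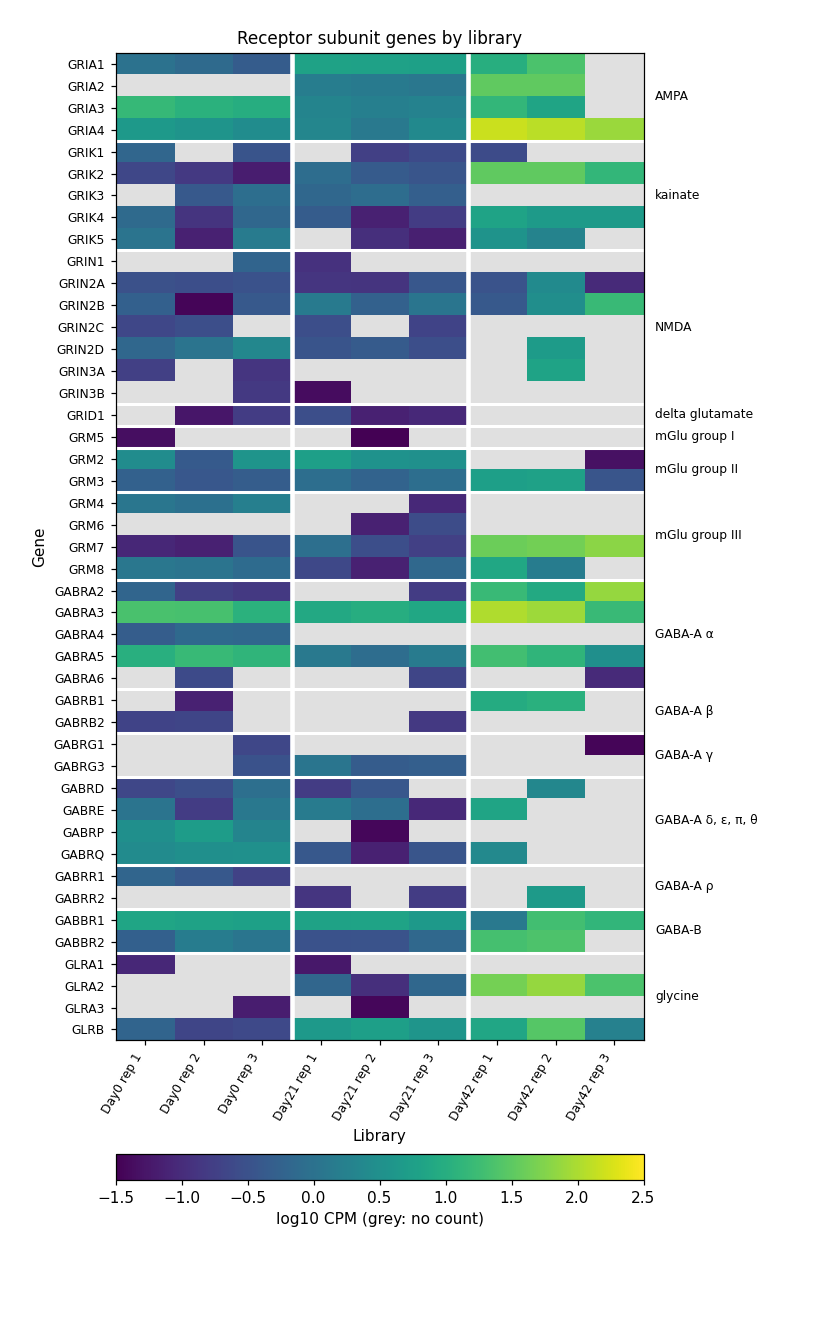
Level of 45 of the 50 subunit genes (rows, grouped by family) in each of the 9 libraries (columns), as log10 of TMM-scaled CPM; grey marks a count of 0. GRIA4, GRIK2, GRM7 and GLRA2 are brightest in the Day42 columns, and the last column has more grey cells than the other Day42 columns.

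Differences between days were tested with edgeR's quasi-likelihood test on the counts of all genes, and a gene is called higher or lower at a Benjamini-Hochberg adjusted p under 0.05 with a log2 fold change of at least 1 in size. Of the 50 members, 37 had enough counts to be tested. The 13 others were GABRA6, GABRB1, GABRB2, GABRG1, GABRR2, GLRA1, GLRA3, GRID1, GRIN1, GRIN3A, GRIN3B, GRM5 and GRM6.

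Between Day42 and Day21, 9 of the 37 tested members (24.3%) were called higher, against 6.52% of all 20156 genes tested, and 3 (8.11%) were called lower, against 19.7% of all genes. The higher ones included the AMPA subunit GRIA4, the kainate subunits GRIK2 and GRIK4, the metabotropic receptor GRM7, the GABA-A subunits GABRA2, GABRA3 and GABRA5, and the glycine receptor subunit GLRA2. The lower ones were GRIK3, GRM2 and GABRG3. The median log2 fold change was 2.22 over the tested members and -0.54 over all tested genes. With genes at 0 on a whole day set to their bound, the medians were 2.22 and -0.34. Without the third Day42 library, 17 members were called higher (11.1% of all genes) and 2 lower (22.3% of all genes), of 39 tested. Without any 1 of the Day21 libraries, 6 or 7 members were called higher, with 621 to 761 of all genes, and 1 was called lower, with 2680 to 2888 of all genes.

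Between Day42 and Day0, 8 members (21.6%) were called higher, against 8.82% of all genes, and 7 (18.9%) lower, against 23.4% of all genes. GRIA2, GRIA4, GRIK2, GRIK4, GRM7, GABRA2, GLRA2 and GLRB were higher, and the lower ones included GRIK3, GRM2, GRM4, GABRA4, GABRP and GABRR1. The median log2 fold change was 0.80 over the members and -0.57 over all genes (-0.38 over all genes with bounds). Leaving out the third Day42 library gave 14 higher members (14.8% of all genes) and 7 lower (25.9% of all genes). Without any 1 of the Day0 libraries 5 members were called higher, with 1072 to 1258 of all genes. This comparison and the one before it share the Day42 libraries.

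Between Day21 and Day0, 1 member was called higher (GLRA2; 1.32% of all genes) and 1 lower (1.18% of all genes), and 4 and 8 members were higher and lower at an unadjusted p under 0.05, which 3398 of all genes also had. The median log2 fold change was -1.11 over the members (-1.002 with bounds) and 0.03 over all genes (0.02 with bounds). With only the Day0 and Day21 libraries fitted, 3 members were called higher (GRIA1, GRIA2 and GLRB; 13.0% of all genes) and 11 lower (among them GRIA3, GRM4, GABRA3, GABRA4, GABRA5, GABRP, GABRQ and GABRR1; 12.6% of all genes). Without the third Day42 library 4 members were called higher (6.57% of all genes) and 9 lower (6.69% of all genes). Without any 1 of the Day0 or Day21 libraries no member was called higher and at most 1 was called lower, with 91 to 145 of all genes higher and 42 to 90 lower. Without the first or the second Day42 library, 4 and 5 members were called lower, with 492 and 561 of all genes.

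**Figure D3:**
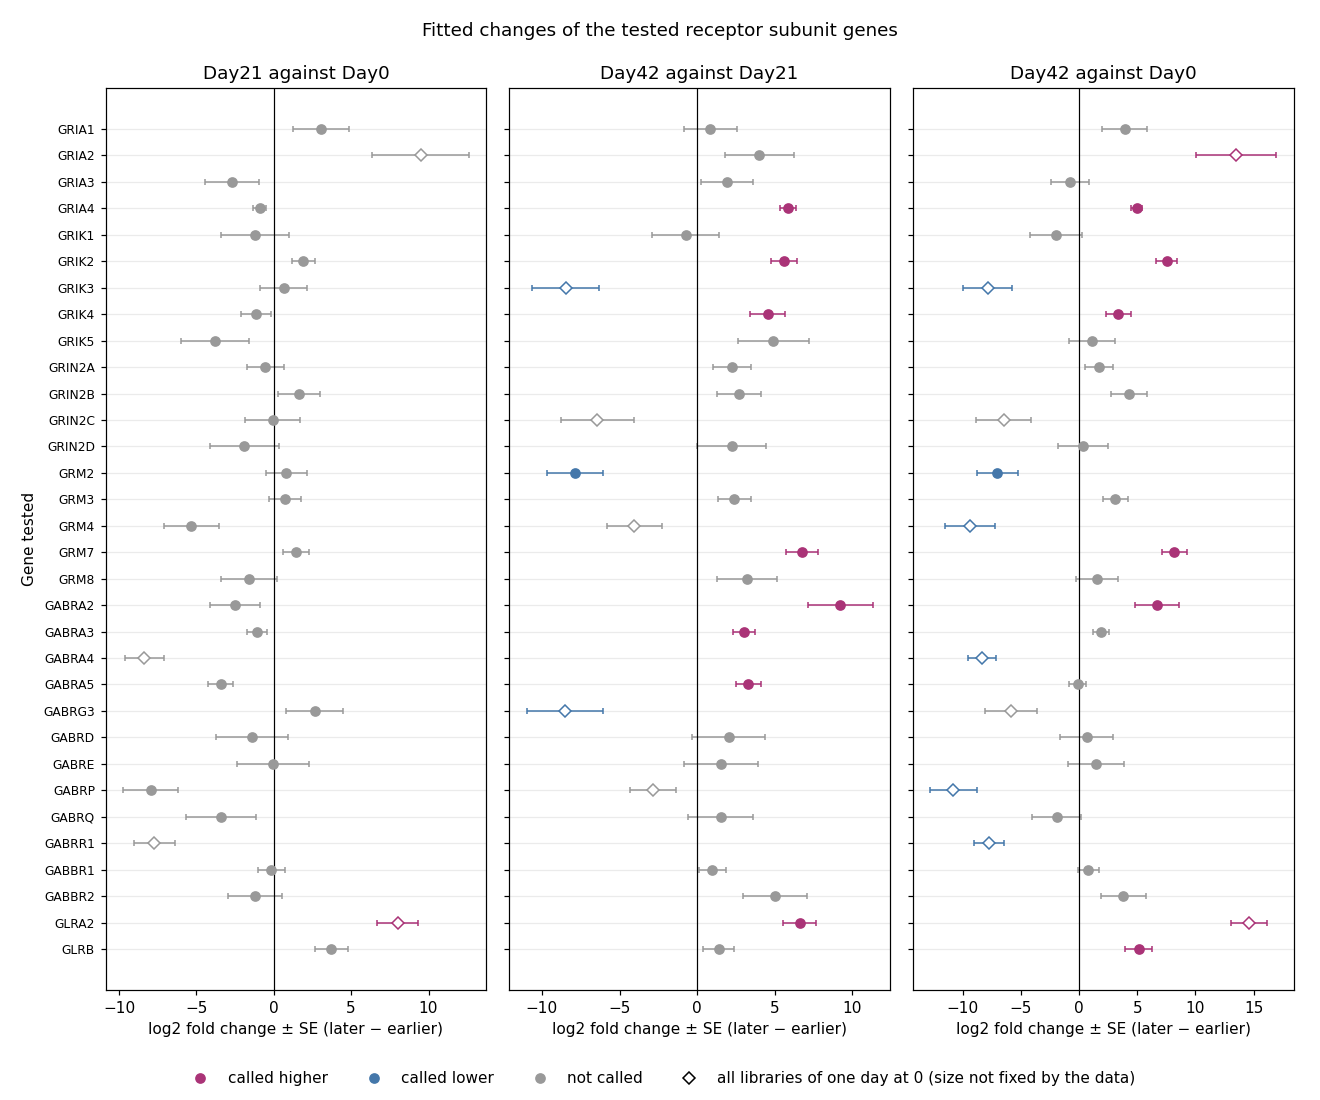
Fitted log2 fold change with its SE (later minus earlier day) of 32 of the 37 tested subunit genes in the 3 comparisons; purple marks genes called higher, blue genes called lower and grey those not called. Open diamonds mark genes at 0 in all libraries of a day, whose plotted size is not fixed by the data. The Day42 against Day21 panel holds 8 purple and 3 blue symbols.

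The sequences around a start site are shown for GRIA4, GLRA2, GRIA2 and GRM2. GRIA4 and GLRA2 were called higher on Day42 against both earlier days, and GRM2 was called lower against both. GRIA2 was at 0 in all Day0 libraries. Other members changed in these ways too, such as GRIK2 and GRM7 (higher against both) and GRIK3 (lower against both). GRIA2 and GRM2 are the only members with the left part of RE1, explained below, in a window. The windows run from 250 bases before to 50 bases after the start, on the plus strand of GRCh38.p14, from RefSeq, in which 37 of the 50 members had at least 1 window. They lie at chr11:105609744-105610043 (GRIA4), chrX:14529048-14529347 (GLRA2), chr4:157220369-157220668 (GRIA2) and chr3:51706818-51707117 (GRM2). Capitals mark letters, on either strand, of the left part (TTCAGCACC) or the right part (GGACAGC) of RE1, the element bound by REST, a repressor of neuronal genes in other cells.
GRIA4: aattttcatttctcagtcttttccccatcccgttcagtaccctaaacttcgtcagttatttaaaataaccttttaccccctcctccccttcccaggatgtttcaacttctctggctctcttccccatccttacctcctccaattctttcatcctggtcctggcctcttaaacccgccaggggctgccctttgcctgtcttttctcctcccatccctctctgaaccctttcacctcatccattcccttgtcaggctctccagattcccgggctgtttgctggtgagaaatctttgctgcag
GLRA2: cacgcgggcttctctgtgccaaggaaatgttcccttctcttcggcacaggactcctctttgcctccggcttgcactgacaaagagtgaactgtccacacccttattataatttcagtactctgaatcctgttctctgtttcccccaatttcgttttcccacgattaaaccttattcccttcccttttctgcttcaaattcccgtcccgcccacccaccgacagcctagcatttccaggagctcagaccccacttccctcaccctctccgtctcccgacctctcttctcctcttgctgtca
GRIA2: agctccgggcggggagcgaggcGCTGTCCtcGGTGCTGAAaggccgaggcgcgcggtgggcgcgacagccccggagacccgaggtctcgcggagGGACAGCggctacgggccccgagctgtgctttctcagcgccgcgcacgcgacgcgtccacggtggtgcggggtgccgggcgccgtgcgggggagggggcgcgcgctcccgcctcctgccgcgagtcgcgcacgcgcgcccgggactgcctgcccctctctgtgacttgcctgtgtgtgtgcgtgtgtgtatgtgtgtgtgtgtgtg
GRM2: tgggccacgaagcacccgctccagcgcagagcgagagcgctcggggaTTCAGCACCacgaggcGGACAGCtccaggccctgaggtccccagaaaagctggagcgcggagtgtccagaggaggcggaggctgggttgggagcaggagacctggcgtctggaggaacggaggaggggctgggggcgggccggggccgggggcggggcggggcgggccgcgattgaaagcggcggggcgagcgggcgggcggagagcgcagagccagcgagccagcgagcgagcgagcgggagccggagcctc
The left part was found in 2 of the 56 member windows, of GRIA2 and GRM2, and in 0.376% of all 35116 windows. The right part was found in 9 of the 56 member windows, of 8 members, and in 6.03% of all windows. The gap between the left part and the nearest right part is shorter in the GRIA2 window than in the GRM2 window. Neither part occurs in the GRIA4 and GLRA2 windows shown. Whether the letters bear on the changes of these genes was not tested. The other GLRA2 window, which is not shown, holds the right part. The GRIA2 window is the one of its 3 that holds the letters, and its start lies 16437 bases inside the gene's span in the deposited table. A match to these letters is a description and not evidence of binding. Besides the RE1 parts, 2 other motifs, the core motif of ETS proteins among them, were searched for in the same windows. The ETS core was found in 4 of the 56 member windows and in 17.2% of all windows. The other motif was found in 3 of the 56 member windows and in 10.3% of all windows.

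Among the AMPA subunits, GRIA4 (chr11:105609994-105982090, plus strand), which forms fast-gating channels, had the smallest adjusted p of any member between Day42 and each earlier day. It had 207, 208 and 173 counts in the Day0 libraries, 151, 73 and 137 in the Day21 libraries, and 11741, 10261 and 6556 in the Day42 libraries. The Day42 libraries were far above all others, and the earlier days were close to each other. Mean TMM-scaled CPM was 3.74 ± 0.907 for Day0, 2.00 ± 0.595 for Day21 and 116 ± 36.5 for Day42 (SD, n = 3). The log2 fold change was 5.86 ± 0.50 (SE; edgeR adjusted p = 0.00034) against Day21 and 4.96 ± 0.48 (edgeR adjusted p = 0.00035) against Day0, and both calls were made under all 18 alternative settings.

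GRIA2, the subunit whose edited form keeps calcium out of the channel, had 0, 0 and 0 counts at Day0, 108, 74 and 67 at Day21, and 2582, 2811 and 0 at Day42. It was therefore not detected in any Day0 library, present in every Day21 library, and split among the Day42 libraries, of which the third had no count. Relative to Day0, GRIA2 was at least 97.1-fold higher on Day42 (edgeR adjusted p = 0.0267). That call was lost without any 1 of the Day0 libraries (edgeR adjusted p = 0.0666 to 0.0691) or the Day21 libraries (0.0536 to 0.0542). Without the third Day42 library GRIA2 was also called higher on Day42 than on Day21, with a log2 fold change of 4.59 (edgeR adjusted p = 0.00096).

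GRIA1, an AMPA subunit linked to synaptic plasticity, showed the same split, with 45, 42 and 28 counts at Day0, 441, 339 and 329 at Day21, and 807, 1959 and 0 at Day42. GRIA3 had 684, 623 and 593 counts at Day0, 137, 91 and 105 at Day21, and 1096, 584 and 0 at Day42. For GRIA1 every Day21 library was above every Day0 library, and for GRIA3 every Day21 library was below. With all libraries neither was called in any comparison, with log2 fold changes between Day21 and Day0 of 3.06 ± 1.82 and -2.71 ± 1.72 (edgeR adjusted p = 0.498 and 0.54). With only the 2 days fitted, the edgeR adjusted p was 0.00142 for GRIA1 and 0.00073 for GRIA3. Without the third Day42 library GRIA1 was called higher on Day42 relative to Day0, with a log2 fold change of 4.49 (edgeR adjusted p = 0.00065), and GRIA3 was called higher relative to Day21, with 2.51 (edgeR adjusted p = 0.00457). The subunit that made up most of the AMPA family's FPKM was GRIA3 on Day0 (78.7% to 81.7%), GRIA1 on Day21 (54.2% to 60.6%) and GRIA4 on Day42 (at least 60.5%).

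**Figure D4:**
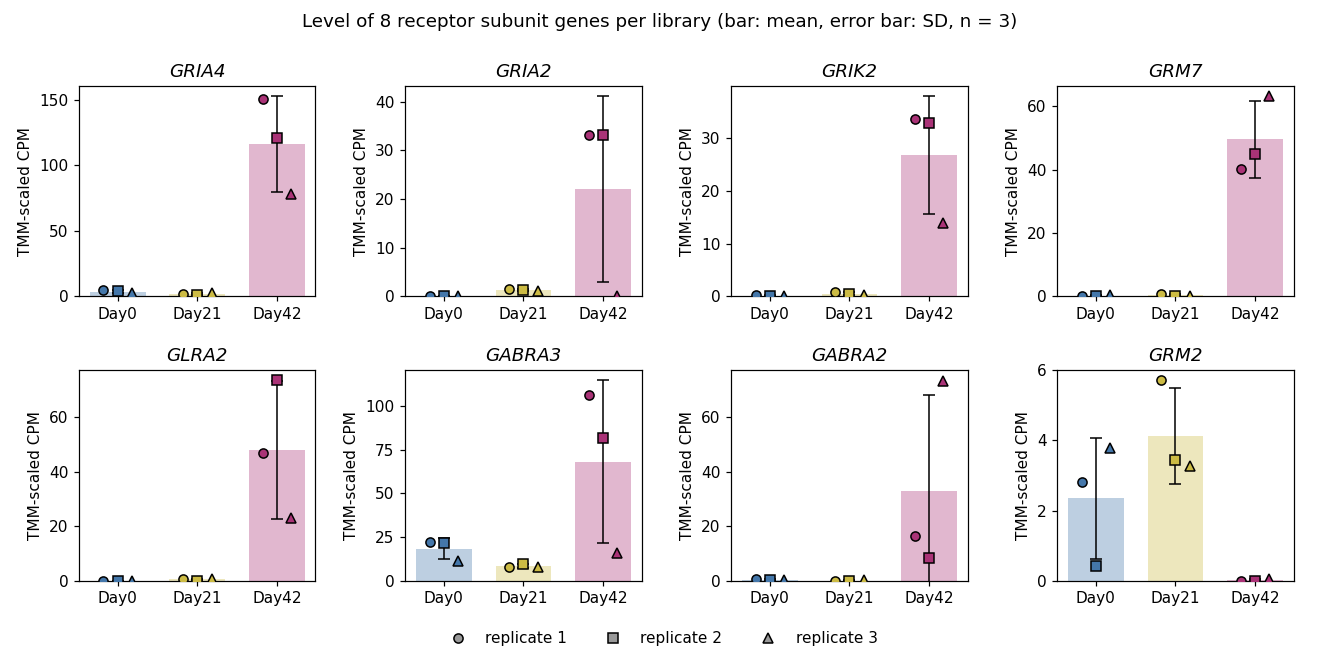
TMM-scaled CPM of 8 subunit genes on Day0, Day21 and Day42; symbols are the libraries by replicate, bars the means and error bars the SD (n = 3). GRIA4, GRIK2, GRM7 and GLRA2 stand higher in all 3 Day42 libraries than in any earlier one, GRIA2 is at 0 in the third Day42 library, and GRM2 is near 0 in all 3.

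Among the kainate subunits, GRIK2 (chr6:101181257-102070083), which can form channels alone, had 10, 8 and 4 counts at Day0, 58, 24 and 20 at Day21, and 2629, 2789 and 1170 at Day42. It was at or under the limit in all Day0 libraries and was far higher in every Day42 library. The log2 fold change was 5.61 ± 0.85 (edgeR adjusted p = 0.0028) against Day21 and 7.52 ± 0.93 (edgeR adjusted p = 0.00096) against Day0, called under all 18 alternatives. GRIK4, a high-affinity subunit that needs a partner such as GRIK2, had 34, 7 and 42 counts at Day0, 32, 4 and 9 at Day21, and 525, 405 and 408 at Day42. The Day42 libraries lay close together and above the others, with a log2 fold change of 4.53 ± 1.13 (edgeR adjusted p = 0.0188) against Day21 and 3.37 ± 1.07 (edgeR adjusted p = 0.0412) against Day0. The call against Day0 was lost without any Day0 library, the second or the third Day21 library or the first Day42 library (edgeR adjusted p = 0.055 to 0.106), and the call against Day21 without the second (0.0753) or the third (0.0834) Day21 library.

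GRIK3, a subunit with low glutamate sensitivity, went the other way. It had 0, 23 and 55 counts at Day0, 48, 46 and 28 at Day21, and 0 in all 3 Day42 libraries. It was lower on Day42 by at least 4.67-fold relative to Day21 (edgeR adjusted p = 0.0296) and at least 3.00-fold lower than on Day0 (edgeR adjusted p = 0.0306). The call against Day21 was lost without any Day21 library, the second Day0 library or the first Day42 library (edgeR adjusted p = 0.0529 to 0.0773). The call against Day0 was lost without any Day21 library, the second or the third Day0 library, or the first or the second Day42 library (edgeR adjusted p = 0.0532 to 0.0768). The bounds for GRIK3, and those below against Day42 libraries at 0, cover counting error only. Some members, such as GRIN3A, had a count of 0 in some Day42 libraries and were far above the limit in another. GRIK5, the other high-affinity subunit, had 49, 4 and 89 counts at Day0, 0, 6 and 4 at Day21, and 281, 167 and 0 at Day42, and was not called. GRIK5 was called higher on Day42 relative to Day21 when the third Day42 library was left out, with a log2 fold change of 5.52 (edgeR adjusted p = 0.0304). GRIK1 was also not called.

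No functional NMDA receptor forms without GRIN1, the subunit that binds the co-agonist glycine, and GRIN1 had 0, 0 and 38 counts at Day0, 8, 0 and 0 at Day21, and 0 in all 3 Day42 libraries. GRIN1 was thus above the limit in only the third Day0 library and was not detectable at this depth on Day42. The glutamate-binding subunit GRIN2B, typical of immature neurons, had 24, 2 and 25 counts at Day0, 93, 30 and 63 at Day21, and 32, 251 and 1374 at Day42. Its Day42 libraries spread widely, the lowest lying among the earlier values, and it was not called, with a log2 fold change against Day0 of 4.32 ± 1.54 (edgeR adjusted p = 0.0629). GRIN2D, also an early subunit, had 31, 60 and 137 counts at Day0, 24, 24 and 16 at Day21, and 0, 428 and 0 at Day42. GRIN3A showed the same picture with 0, 553 and 0 counts on Day42. Their Day42 signal came from the second library in each case. GRIN2A and GRIN2C were tested and not called, and GRIN3B was at or under the limit in all libraries. Summed FPKM of the 7 NMDA genes reached 0.252 ± 0.167 in Day0, 0.101 ± 0.0356 in Day21 and 0.994 ± 1.23 in Day42 libraries, and that of the 4 AMPA genes 1.58 ± 0.241, 1.04 ± 0.182 and 18.8 ± 9.15 on the same days.

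Of the delta receptor genes, GRID1 had 0, 3 and 10 counts at Day0, 20, 4 and 5 at Day21, and 0 in all 3 Day42 libraries, and was above the limit in the first Day21 library only.

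Among the metabotropic receptors, GRM7 (chr3:6770001-7741533), a presynaptic receptor with low glutamate affinity, had 4, 4 and 21 counts at Day0, 62, 16 and 10 at Day21, and 3147, 3816 and 5330 at Day42. All Day42 libraries were far above the earlier ones, and the third was the highest. The log2 fold change was 6.75 ± 1.01 (edgeR adjusted p = 0.00275) against Day21 and 8.17 ± 1.08 (edgeR adjusted p = 0.00129) against Day0, called under all 18 alternatives. GRM7 made up 65.7%, 77.1% and 98.9% of the family's FPKM in the Day42 libraries, whose family sums were 8.37, 8.38 and 8.36. Its antisense genes GRM7-AS1, GRM7-AS2 and GRM7-AS3 overlap it, and no source names the strand setting of the counting.

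GRM2, a presynaptic autoreceptor of group II, had 126, 24 and 232 counts at Day0, 394, 188 and 181 at Day21, and 0, 0 and 4 at Day42. It led the metabotropic family on Day21, with 53.0% to 67.8% of the family's FPKM, and was under the limit in all Day42 libraries. The log2 fold change was -7.86 ± 1.82 against Day21 (edgeR adjusted p = 0.0136) and -7.04 ± 1.75 against Day0 (edgeR adjusted p = 0.0158). The call against Day0 was lost with only those days fitted (edgeR adjusted p = 0.063) and with voom quality weights (limma adjusted p = 0.0503). GRM3, the other group II receptor, had 25, 21 and 29 counts at Day0, 60, 32 and 49 at Day21, and 452, 529 and 30 at Day42. Relative to library size the third Day42 library (0.356 CPM) was below every earlier library, and the other Day42 libraries were above all of them. GRM3 was not called, with a log2 fold change of 2.40 ± 1.07 against Day21 (edgeR adjusted p = 0.14), and 2.95 (edgeR adjusted p = 0.00712) without the third Day42 library.

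The other group III receptors differed from GRM7. GRM4, a presynaptic receptor prominent in the cerebellum, had 53, 53 and 102 counts at Day0, 0, 0 and 5 at Day21, and 0 in all 3 Day42 libraries. It was lower on Day42 by at least 8.71-fold relative to Day0 (edgeR adjusted p = 0.0175). GRM8 had 55, 61 and 48 counts at Day0, 16, 4 and 39 at Day21, and 606, 127 and 0 at Day42, and was not called. Its log2 fold change against Day21 was 3.79 (edgeR adjusted p = 0.0296) without the third Day42 library. GRM6, known from retinal bipolar cells, was at 0 on Day0 and Day42. GRM5, a group I receptor, was at or under the limit in all 9 libraries.

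GABA-A receptors usually combine alpha, beta and gamma subunits. Of the alpha subunits, GABRA3 (chrX:152166234-152451315), found in serotonin neurons of rodents, had 991, 1190 and 703 counts at Day0, 557, 535 and 425 at Day21, and 8300, 6943 and 1352 at Day42. Every Day42 library was above every Day21 library. Relative to library size the third Day42 library (16.0 CPM) was below the first and second Day0 libraries (22.2 and 21.6 CPM), and the other Day42 libraries were above all of Day0. GABRA3 was higher on Day42 than on Day21 with a log2 fold change of 3.00 ± 0.69 (edgeR adjusted p = 0.0136). That call was lost without any 1 of the Day21 libraries (edgeR adjusted p = 0.0533 to 0.0623). Against Day0 the log2 fold change was 1.89 ± 0.66 (edgeR adjusted p = 0.0603), and 2.35 (edgeR adjusted p = 0.00128) without the third Day42 library.

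GABRA5, an alpha subunit of receptors outside synapses, had 463, 865 and 815 counts at Day0, 89, 47 and 82 at Day21, and 1517, 1130 and 263 at Day42. The Day21 libraries were the lowest of all. GABRA5 was called higher on Day42 than on Day21 with a log2 fold change of 3.30 ± 0.79 (edgeR adjusted p = 0.0162), and this call was lost without any 1 of the Day21 libraries (edgeR adjusted p = 0.0593 to 0.0781) and with only those days fitted (0.0714). Day21 against Day0 gave -3.44 ± 0.80 (edgeR adjusted p = 0.0514), and with only those days fitted the edgeR adjusted p was 0.00048. GABRA5 overlaps another gene on the opposite strand, and without a known strand setting their reads cannot be told apart there.

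GABRA2, an alpha subunit widespread in forebrain, had 28, 10 and 9 counts at Day0, 0, 0 and 9 at Day21, and 1282, 711 and 6189 at Day42. Here the third Day42 library was the highest, and in it GABRA2 led the alpha family with 47.8% of its FPKM. The log2 fold change was 9.21 ± 2.09 against Day21 (edgeR adjusted p = 0.0128) and 6.68 ± 1.87 against Day0 (edgeR adjusted p = 0.0257). Without the third Day21 library the Day21 counts are all 0, and the fitted value of 14.09 is not fixed by the data. When the third Day42 library was left out, the log2 fold change was 7.84 (edgeR adjusted p = 0.00975) against Day21 and 5.29 (edgeR adjusted p = 0.024) against Day0. The call against Day0 was lost without any 1 of the Day0 libraries (edgeR adjusted p = 0.065 to 0.0954).

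GABRA4, a partner of the delta subunit, had 21, 40 and 42 counts on Day0 and 0 in every later library. Every Day0 library was thus above every later one, and on Day42 GABRA4 was lower by at least 4.30-fold relative to Day0 (edgeR adjusted p = 0.00888). GABRA6, a subunit of cerebellar granule cells, was above the limit in 1 Day0 library only.

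Of the beta subunits, which take part in binding GABA, GABRB1 had 0, 4 and 0 counts on Day0, 0 in all Day21 libraries, and 707, 913 and 0 on Day42. It did not reach the minimum for testing with all libraries, and without the third Day42 library it was called higher on Day42 than on both earlier days. GABRB2 was at or under the limit in all 9 libraries.

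Gamma subunits anchor GABA-A receptors at synapses. Of these, GABRG3 had 0, 0 and 20 counts at Day0, 78, 25 and 28 at Day21, and 0 in all 3 Day42 libraries. It was lower on Day42 by at least 4.79-fold relative to Day21 (edgeR adjusted p = 0.0473), a call lost under 10 of 15 alternatives, among them the omission of the first Day0 library, any Day21 library or any Day42 library (edgeR adjusted p up to 0.112). GABRG1 was above the limit in 1 Day0 library only.

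Of the rarer GABA-A subunits, GABRP, the pi subunit known from tissues outside the brain, had 141, 279 and 125 counts at Day0, 0, 2 and 0 at Day21, and 0 in all 3 Day42 libraries. It was lower on Day42 by at least 23.4-fold relative to Day0 (edgeR adjusted p = 0.00812), called under all 15 alternatives that tested it. The rho subunit GABRR1, known from retina, had 28, 22 and 12 counts on Day0 and 0 in every later library, at least 2.79-fold lower on Day42 (edgeR adjusted p = 0.0128). The GABRR1 call was lost without the first (edgeR adjusted p = 0.0538) or second (0.0502) Day0 library. GABRR2 had 406 counts in the second Day42 library and 0 in the other Day42 libraries.

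The epsilon subunit GABRE and the theta subunit GABRQ, which are known from monoamine nuclei of rodents, neighbour GABRA3 on the X chromosome. GABRE had 48, 9 and 78 counts at Day0, 99, 48 and 5 at Day21, and 540, 0 and 0 at Day42. GABRQ had 121, 169 and 196 counts at Day0, 28, 4 and 20 at Day21, and 187, 0 and 0 at Day42. Their Day42 counts came from the first library only, while GABRA3 was present in all 3, and neither GABRE nor GABRQ was called. GABRD, the delta subunit of receptors outside synapses, had a count on Day42 in the second library only (191) and was not called.

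GABA-B receptors need both of their subunits. GABBR1, which binds GABA, had 320, 357 and 362 counts at Day0, 433, 361 and 256 at Day21, and 102, 1623 and 1155 at Day42. GABBR2, which carries the complex to the surface and couples to the G protein, had 24, 84 and 70 counts at Day0, 22, 18 and 40 at Day21, and 1629, 2045 and 0 at Day42. The second Day42 library was high in both, the first was high in GABBR2 only and the third in GABBR1 only. Neither gene was called. Without the third Day42 library GABBR2 was called higher on Day42 than on Day21, with a log2 fold change of 5.63 (edgeR adjusted p = 0.00079), and higher relative to Day0 by 4.39 (edgeR adjusted p = 0.00126).

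Among glycine receptor genes, GLRA2 (chrX:14529298-14731812), the alpha subunit of the fetal nervous system, had 0, 0 and 0 counts at Day0, 46, 6 and 38 at Day21, and 3663, 6242 and 1940 at Day42. The Day42 libraries were far above all others. Mean CPM was 0 at Day0, 0.488 ± 0.328 at Day21 and 47.8 ± 25.3 at Day42 (SD, n = 3). GLRA2 was higher on Day42 than on Day21 with a log2 fold change of 6.61 ± 1.06 (edgeR adjusted p = 0.00584), and at least 210-fold higher than on Day0 (edgeR adjusted p = 0.00132). Both calls were made under all 18 alternatives. On Day21 it was at least 2.15-fold higher than on Day0 (edgeR adjusted p = 0.0396), a call lost under 10 of 17 alternatives, among them the omission of any Day0 or Day21 library or of the first Day42 library (edgeR adjusted p = 0.0511 to 0.143).

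GLRB, the beta subunit that ties glycine receptors to the scaffold protein gephyrin, had 27, 12 and 15 counts at Day0, 316, 312 and 216 at Day21, and 573, 2407 and 151 at Day42. All Day21 libraries were above all Day0 libraries, and the Day42 libraries overlapped with Day21. GLRB was higher on Day42 than on Day0 with a log2 fold change of 5.13 ± 1.17 (edgeR adjusted p = 0.0108). Day21 against Day0 gave 3.73 ± 1.10 (edgeR adjusted p = 0.107), and the edgeR adjusted p was 0.00196 with only those days fitted. GLRB made up 86.2% to 98.1% of the glycine receptor FPKM on Day21, and GLRA2 made up 70.4% to 92.2% on Day42. GLRA1, the alpha subunit of adult spinal cord, and GLRA3 were at or under the limit in all 9 libraries.

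The third Day42 library held many of the zeros. Of the 22 members above the limit in the first and second Day42 libraries, 8 (36.4%) were at 0 in the third, among them GRIA1, GRIA2, GRIA3, GRIK5, GRM8, GABRB1 and GABBR2. Of all 10105 protein-coding genes above the limit in those libraries, 29.2% were at 0 in the third. The difference between these shares was not tested.

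Genes that act with these receptors were read from a list of 44 auxiliary subunits, scaffolds, editing enzymes and chloride transporters, of which 41 were in the table and 38 were tested. Between Day42 and Day21, 4 of the 38 were called higher (6.52% of all genes) and 3 lower (19.7% of all genes). GPHN, which codes for gephyrin, had 61, 182 and 162 counts at Day0, 487, 272 and 352 at Day21, and 2324, 2161 and 4300 at Day42. It was higher on Day42 than on Day0 with a log2 fold change of 3.86 ± 0.61 (edgeR adjusted p = 0.00242) and than on Day21 with 2.53 ± 0.57 (edgeR adjusted p = 0.0124). NECAB2, which binds metabotropic receptors, rose against Day21 by 2.03 ± 0.32 on the log2 scale (edgeR adjusted p = 0.00317), and HOMER1 and HOMER2, scaffolds of group I receptors, rose by 2.49 ± 0.55 and 2.65 ± 0.57 (edgeR adjusted p = 0.0114 and 0.0104). Mean CPM on Day0, Day21 and Day42 was 10.6, 4.05 and 22.8 for HOMER1, and 28.0, 6.15 and 38.6 for HOMER2. Neither was called on Day42 against Day0 (edgeR adjusted p = 0.151 and 0.58). Against Day21, the GPHN and HOMER1 calls were lost under 3 of 18 alternatives each, and the HOMER2 call under 2 of 18. HOMER3 (-2.43 ± 0.36; edgeR adjusted p = 0.00267), GABARAP (-1.38 ± 0.24; 0.00453) and GSG1L (-6.25 ± 1.77; 0.0434) were lower on Day42 than on Day21. The last of these calls was lost under 11 of 14 alternatives.

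Between Day42 and Day0, 4 of the 38 were higher (8.82% of all genes) and 3 lower (23.4% of all genes). Besides GPHN, they were NECAB2 (4.16 ± 0.35; edgeR adjusted p = 0.00019), the kainate receptor auxiliary subunit NETO2 (2.00 ± 0.61; 0.0359) and PLCL1. The NETO2 call was lost under 8 of 18 alternatives. PLCL1 was at 0 in the first Day42 library, and its call was made under 5 of 14 alternatives. The lower genes were the AMPA auxiliary subunits CACNG5 and GSG1L and the GABA-B auxiliary subunit KCTD8, all at 0 in every Day42 library. Between Day21 and Day0, HOMER3, NECAB2 and GABARAP were higher (1.32% of all genes) and none was lower (1.18% of all genes). The HOMER3 call was lost under 4 of 18 alternatives and the NECAB2 and GABARAP calls under 7 each. The vesicular glutamate transporter SLC17A8 had 7399, 10811 and 4079 counts on Day42, while SLC17A6, SLC17A7, GAD2, SLC32A1 and SLC6A5, which mark other glutamate, GABA and glycine neurons, were at 0 in all Day42 libraries. GAD1, which codes for another GABA-synthesising enzyme, had 481, 28 and 0 counts on Day42 and was not called.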

How the data were processed

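Libraries were made from about 10 ng of Trizol-extracted RNA with a low-input kit, per the labels' protocols. Cutadapt 1.9, FastQC and GRCh38 are named in the submitters' processing notes. The sources used here do not name the aligner, the counter, its strand setting or the annotation. The deposited table holds raw counts per gene and library, and FPKM that the authors computed, per the file headers. FPKM, which lacks TMM scaling, was used to compare genes and for sums over members and families. CPM, counts scaled by TMM library sizes, was used to compare the days gene by gene.

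Genes were kept by filterByExpr (20156), and edgeR 4.0.16 (R 4.3.3) fitted a mean for each day over the 9 libraries together (2-sided quasi-likelihood test, Benjamini-Hochberg adjustment over all genes; SE from the fold change and F statistic). P-values rest on library-to-library spread alone, and that spread may be technical. Counts of 4 were 2.17 times as frequent as the mean of 3 and 5, so a count may not be an independent fragment, and the limit a count of 0 allows was set at 3 steps of 4, or 12 counts per library (mean 0.227 CPM for Day0, 0.203 for Day21 and 0.146 for Day42). Bounds against a day at 0 use that mean limit and cover counting error only.

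Alternatives used RLE scaling, no filter, a filter at FPKM 1 in 3 libraries, DESeq2 1.42.0, voom and limma 3.58.1 on log2(FPKM + 1) and log2(FPKM + 0.1), a replicate block, only the 2 days compared, and each library left out. The edgeR script was tested on simulated data. Genes named with values are those called in any comparison, GRIA4, GLRA2, and the highest member of each family on each day if above the limit. GRIN1, GRIN2B, GRIN3A, GABRB1, GABRD and GABRQ were added after their values were seen. GRID1 is also given with values, although it did not meet this rule. Members and lists were chosen with earlier results of these data known. All 50 members were found in GENCODE release 29, where 16 overlap another gene on the same strand and 17 on the opposite strand only, so their counts may include a neighbour's reads. Results for 5 of the members are not reported here by name or in the plots by gene, though the counts of members include them.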

Additional observations from a re-analysis of the deposited data

How the results depend on the processing

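Of the 29 calls of a subunit gene in a comparison, 12 were made under every alternative that tested them. Over these calls, 474 alternative results were computed, of which 393 kept the direction and the call, 81 kept the direction and lost the call, and 0 changed direction. Leaving out 1 library at a time gave these counts of members, with those of all genes in brackets. On Day21 against Day0, 0 to 4 were higher (91 to 1434) and 0 to 9 lower (42 to 1460). On Day42 against Day21, 6 to 17 were higher (621 to 2416) and 1 to 3 lower (2680 to 5046). On Day42 against Day0, 5 to 14 were higher (1072 to 3220) and 5 to 8 lower (3545 to 5664). The highest counts of higher members, and of all genes called higher, came without the third Day42 library.

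Beside each count of members stands that over all tested genes in brackets. On Day21 against Day0, the number of members called higher was 4 with DESeq2 (1389), 7 with voom quality weights (3734), 0 with limma on log2(FPKM + 1) (616), 0 with limma on log2(FPKM + 0.1) (674) and 3 with only the 2 days fitted (2550). The number called lower was 8 with DESeq2 (1563), 16 with voom (3191), 2 with the FPKM filter (419), 2 with limma on log2(FPKM + 0.1) (651) and 11 with only the 2 days (2459). On Day42 against Day21, members called lower numbered 0 with the FPKM filter (1676), 1 with voom (2928), 0 with limma on log2(FPKM + 1) (1759) and 0 with limma on log2(FPKM + 0.1) (1896). On Day42 against Day0, 13 members were called higher with DESeq2 (2621), and the number called lower was 0 with the FPKM filter (1993), 0 with limma on log2(FPKM + 1) (2079) and 0 with limma on log2(FPKM + 0.1) (2178). The FPKM filter, which both limma fits on FPKM also used, left 9 members to test. Those low on Day42 are not among them, so these settings could not call them lower.

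Deviations from the day means correlated at -0.225 to 0.0266 between same-numbered libraries of different days, and at -0.182 to 0.301 between differently numbered ones. With 3 libraries per day, these values cannot show whether the numbers pair the libraries. With the replicate block, 0 members were called higher (76) and 0 lower (33) on Day21 against Day0, 1 was called lower (1803) on Day42 against Day21, and 4 were called higher (1051) and 2 lower (2659) on Day42 against Day0. The 13 untested members did not pass filterByExpr, as their counts were low or present in too few libraries.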
